A study of Mus musculus with 18 samples.

Results

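The complement system and the clotting cascade are groups of plasma proteins made mostly by the liver, and 36 of their genes were examined here, 17 of complement and 19 of clotting and fibrinolysis. They were chosen by name, with earlier results of these data known. Each was found on the arrays through the accession of its probe, among 16543 genes matched in this way. The 36 genes had 46 probes, and all 46 passed the filter on dim probes. Hepatic mRNA was measured on 2-colour oligonucleotide arrays in 5 control and 5 hypothyroid C57BL/6 mice on post natal day (PND) 15, with the liver RNA of 1 animal on each array beside a universal mouse reference RNA. The pups of both groups were nursed by dams given drinking water with 1% sugar. For the hypothyroid group this water also held 0.05% methimazole (MMI), which blocks thyroid hormone synthesis, and 1% perchlorate, which blocks iodide uptake by the thyroid, from PND 12. The model is therefore short, and the dam and the pup were both exposed to the 2 agents. The pups were male, and litters were represented by a single pup each. On PND 15, a few hours before sacrifice, pups of both groups received an injection of phosphate-buffered saline.

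Complement is a chain of proteases and pore proteins that tags and lyses microbes. Recognition molecules (C1q, the mannose-binding lectins) start it, convertases built from C2, C3 and factor B amplify it, and C5 to C9 form the membrane pore. In clotting, the contact system and the vitamin K dependent factors lead to thrombin, which turns fibrinogen into fibrin, while protein C, protein S, antithrombin and heparin cofactor II hold it back and plasmin dissolves the clot. Most of these proteins come from hepatocytes, whereas C1q is made by macrophages such as Kupffer cells.

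The upstream sequences of 5 members are shown: the 3 fibrinogen chains because they form 1 protein and lie together, C3 because it had the highest difference between the groups without the outlying control array described below, and F9 because it was the clotting gene with a lower mean in hypothyroid liver on all 10 arrays. Each is the 250 bases before the annotated start of the gene, 5′ to 3′ along the gene, from RefSeq on the GRCm38.p6 assembly. Capitals mark every match, on either strand, to AGGTCA (the half-site of nuclear receptors, thyroid hormone receptors included), to GTTAAT (a half-site of the hepatocyte factor HNF1) or to TTNNGNAA (a core of C/EBP sites, N being any base). No match to one of these motifs overlaps a match to another in these windows, and the last TTNNGNAA match of C3 reads on both strands and was counted once.
Fga, chr3:83025903-83026152, plus strand: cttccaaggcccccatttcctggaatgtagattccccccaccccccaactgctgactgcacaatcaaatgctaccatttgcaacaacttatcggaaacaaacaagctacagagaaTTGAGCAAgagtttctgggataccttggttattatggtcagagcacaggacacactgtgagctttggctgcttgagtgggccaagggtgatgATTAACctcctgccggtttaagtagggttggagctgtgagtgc
Fgb, chr3:83049864-83050113, minus strand: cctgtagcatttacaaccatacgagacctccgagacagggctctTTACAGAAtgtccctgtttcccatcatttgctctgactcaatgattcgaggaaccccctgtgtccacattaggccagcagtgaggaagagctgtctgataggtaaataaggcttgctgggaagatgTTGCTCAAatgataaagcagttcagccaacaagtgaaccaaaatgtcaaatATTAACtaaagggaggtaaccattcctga
Fgg, chr3:83007474-83007723, plus strand: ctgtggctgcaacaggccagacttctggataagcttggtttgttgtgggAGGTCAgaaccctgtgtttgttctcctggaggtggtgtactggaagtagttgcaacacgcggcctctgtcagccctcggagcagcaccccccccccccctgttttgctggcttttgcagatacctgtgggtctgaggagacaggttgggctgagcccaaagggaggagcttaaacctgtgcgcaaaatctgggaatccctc
C3, chr17:57228137-57228386, minus strand: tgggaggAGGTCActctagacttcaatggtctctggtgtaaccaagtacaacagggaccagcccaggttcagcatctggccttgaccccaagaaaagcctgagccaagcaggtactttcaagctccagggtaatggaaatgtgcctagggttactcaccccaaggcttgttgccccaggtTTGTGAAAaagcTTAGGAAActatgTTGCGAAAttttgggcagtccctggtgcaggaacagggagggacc
F9, chrX:59999214-59999463, plus strand: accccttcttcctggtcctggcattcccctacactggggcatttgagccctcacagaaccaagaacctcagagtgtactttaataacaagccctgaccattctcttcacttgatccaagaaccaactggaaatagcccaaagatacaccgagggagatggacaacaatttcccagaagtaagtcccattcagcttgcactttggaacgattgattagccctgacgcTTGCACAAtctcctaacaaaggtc
Fgg, Fga and Fgb are neighbours on chromosome 3, with 0 genes between Fgg and Fga and 1 between Fga and Fgb. The Fga and Fgb windows each hold 1 GTTAAT match, and the Fgg and C3 windows each hold 1 AGGTCA match. C3 has 3 C/EBP matches and F9 has 1. Promoters were found for 28 of the 36 members. AGGTCA was present in 11 of the 28 (39.3%) and in 14.0% of all 32851 promoter windows of this length, GTTAAT in 6 of 28 (21.4%) against 6.43%, and TTNNGNAA in 13 of 28 (46.4%) against 36.8%. Members were counted by gene, 1 of them having 2 windows, and the background by window over all annotated promoters, not only those of genes tested here. The shares thus differ in unit and in set. These counts describe letters in a window and not bound sites. The 11 genes with AGGTCA were 5 of complement (C1qc, C3, C6, C8b and Mbl2) and 6 of clotting (F2, F5, F7, F10, Fgg and Serpinf2).

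Each value below is a log2 ratio of liver over reference RNA for the brightest probe of a gene. Ratios of different genes are not compared as levels, since they depend on the reference. All 36 genes were well above background in the liver channel on 10 of 10 arrays, and no spot of them was saturated. In hypothyroid liver the mean ratios ran from 1.65 for C6 to 7.66 for Cfi, so that each had more signal in liver than in the reference. Arrays are listed in the order 881, 832, 522, 616 and 391 for the controls and 891, 576, 311, 723 and 626 for the hypothyroid livers.

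Control 616 stood apart from the other 9 arrays, and this bears on every comparison. Over all probes its log2 ratios correlated at 0.882 with the mean of the arrays on other slides, against 0.974 to 0.988 for the rest, and the slope was 0.609 against 0.968 to 1.06. For the 35 members with a value on it, the mean ratio was 3.01 on control 616 and 4.25 to 4.61 on the other arrays. It was the lowest of the 10 arrays for 33 of these 35 genes, C9 and F9 being the exceptions. The share of probes above background was 75.7% on control 616 and 75.8% to 85.4% on the others. Both arrays of slide 141 (control 832 and hypothyroid 576) ran opposite to their labelled dyes (r = -0.974 and -0.978), and their channels were exchanged. The cause of the narrower ratios on control 616 was not tested. The differences are therefore given with all 10 arrays and then without control 616, in this order where a gene has 2 values, and a difference is always the mean of hypothyroid minus that of control arrays on the log2 scale.

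**Figure D1:**
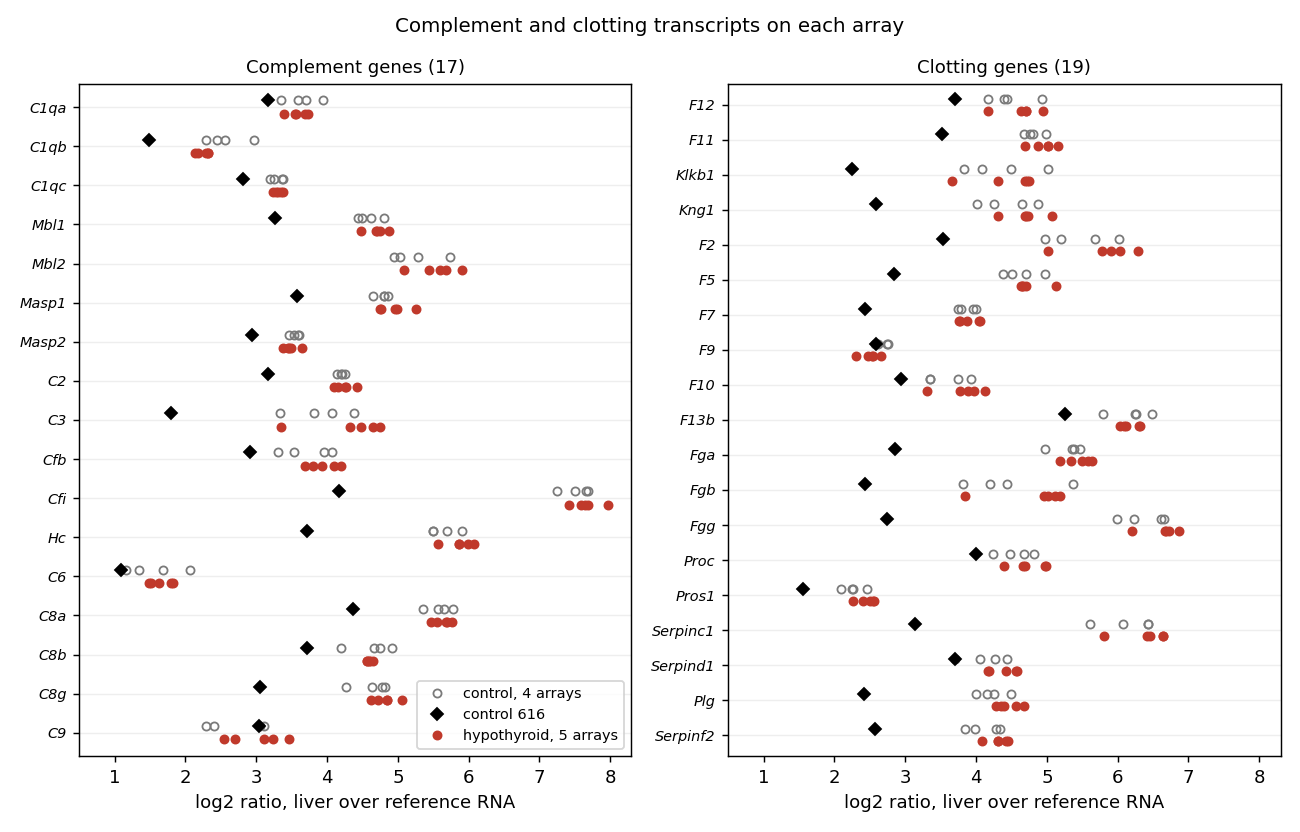
Log2 ratio of liver over reference RNA (horizontal axis) for the 17 complement genes (left) and the 19 clotting genes (right), 1 symbol per array: open circles, 4 controls; diamonds, control 616; filled circles, 5 hypothyroid livers. Control 616 lies to the left of the other arrays for 33 of the 35 genes it measured, and for every gene the other controls overlap the hypothyroid livers.

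With 10 arrays, 34 of the 36 members had a higher mean in hypothyroid than in control liver, but none passed the test. The median difference was 0.36 on the log2 scale (1.29-fold), 0.29 for complement and 0.47 for clotting. The mean was higher in 16 of 17 complement genes and 18 of 19 clotting genes, against 46.2% of the 32053 probes tested. All 36 members had ratios above 0, whereas the probes tested include ratios below 0, and ratios of both signs could be nearer 0 on control 616. Bile duct (cholangiocyte) markers, for example, had a list mean of -0.34 on control 616 and of -1.22 on the other controls. The share among probes with ratios like those of the members was not computed, here or below. With limma and Benjamini-Hochberg adjustment over all probes, 0 of 36 members had an adjusted p below 0.05 (lowest adjusted p 0.661), against 0.00624% of all probes (2 probes). At an unadjusted limma p below 0.05, 2 members were called, both clotting inhibitors and both higher, against 3.34% of probes that were higher at this threshold. With control 522 rather than 616 left out, an unadjusted limma p below 0.05 was reached by 4 complement and 9 clotting genes, against 8.84% of probes, again with none past the adjusted threshold. The 2 groups overlapped for all 36 members; they did not overlap for 2.07% of the probes.

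Without control 616 the differences were smaller for most genes. The mean was then higher in hypothyroid liver for 30 of 36 members, 13 of 17 for complement and 17 of 19 for clotting, against 49.3% of probes. The median difference was 0.16 (1.12-fold), 0.11 for complement and 0.19 for clotting, and the highest was 0.42 (1.33-fold, C3). No member had an adjusted limma p below 0.05 (lowest adjusted p 0.529), against 0.0936% of probes (30). C1qb alone was below an unadjusted p of 0.05, against 7.36% of probes, and it was lower. The groups still overlapped for all 36 genes, against 2.91% of probes without overlap. For 32 of the 36 genes the difference was less than 2 standard errors (SE) from 0, with SEs of 0.067 to 0.32. When the spread of the ratios was also made equal between the 9 arrays, the mean was higher for 6 members and lower for 30 (49.3% of probes were higher), so the direction of these small differences depended on the scaling. With 10 arrays the same scaling gave 16 higher and 20 lower (44.4% of probes were higher). Without slide 141 as well as control 616, and with no such scaling, C1qb, C3 and Hc were below an unadjusted limma p of 0.05 and 0 clotting genes were, against 7.37% of probes, and no member passed the adjusted threshold.

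**Figure D2:**
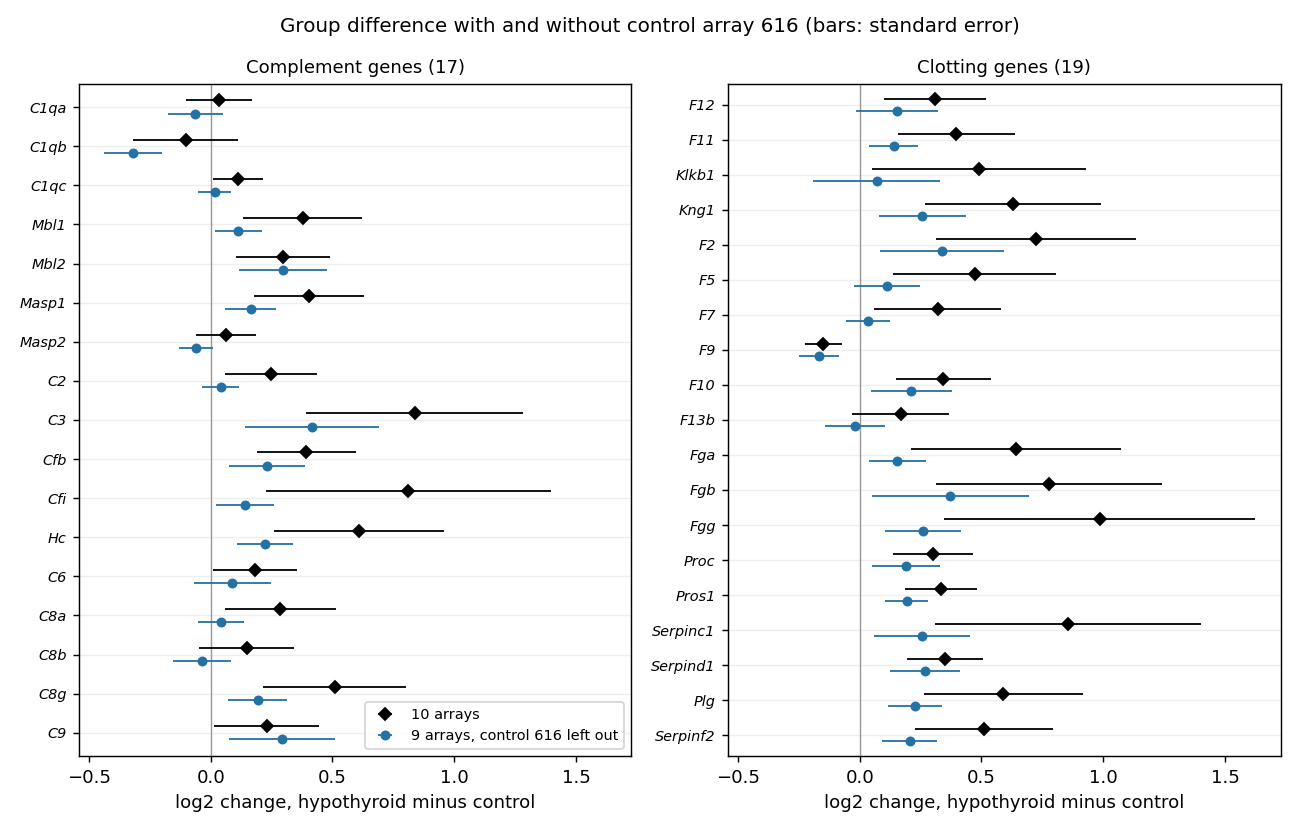
Difference of the group means on the log2 scale, hypothyroid minus control (horizontal axis), with its standard error, for each complement (left) and clotting gene (right): diamonds, all 10 arrays; circles, 9 arrays without control 616. The differences reach 0.99 (Fgg) with control 616 and 0.42 (C3) without it, and C1qb and F9 lie below 0 in both.

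Within the complement genes, the recognition molecules had the smallest median difference without control 616 (0.02). C1qa, C1qb and C1qc encode the 3 chains of C1q and lie side by side in the genome with 0 genes between neighbours. C1qb read 2.96, 2.55, 2.45, 1.49 and 2.29 in the controls and 2.32, 2.31, 2.13, 2.29 and 2.17 in the hypothyroid livers. All 5 hypothyroid livers were below controls 881, 832 and 522, around control 391 and above control 616. The difference was -0.10 ± 0.22 (SE) with 10 arrays (limma, adjusted p = 0.918). Without control 616 it was -0.32 ± 0.12 (limma p = 0.0197, adjusted p = 0.529; exact permutation p = 0.0317, two-sided). C1qa read 3.59, 3.94, 3.71, 3.17 and 3.36 in the controls and 3.57, 3.69, 3.39, 3.73 and 3.55 in the hypothyroid livers, and its difference was 0.03 ± 0.14 with 10 arrays and -0.06 ± 0.11 with 9. The hypothyroid values of C1qa all lay within the range of the controls. C1qc varied little over the same 9 arrays, from 3.19 to 3.38, and its difference was 0.11 ± 0.10 with 10 arrays and 0.02 ± 0.07 with 9. Without control 616 the 3 chains of C1q thus had 1 value past an unadjusted threshold and 2 within 1 SE of 0. Of 13 Kupffer cell and macrophage genes tested, 7 had a lower mean in hypothyroid liver with 10 arrays (median -0.02) and 11 without control 616 (median -0.06), and the mean of the list was 2.04 to 2.48 on the 4 controls and 2.07 to 2.28 on the hypothyroid arrays. Over all probes, 46.2% had a higher mean with 10 arrays and 49.3% without control 616. In whole liver, fewer cells of a type and less RNA per cell cannot be told apart.

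The lectin pathway genes had higher means in hypothyroid liver with 10 arrays, and Masp2 had a lower mean without control 616. Mbl1 and Mbl2 encode mannose-binding lectins, and Masp1 and Masp2 the proteases bound to them. Mbl2 read 4.94, 5.03, 5.74 and 5.28 on controls 881, 832, 522 and 391 and 5.44, 5.09, 5.91, 5.68 and 5.60 in the hypothyroid livers. The spot of Mbl2 on control 616 was marked as an outlier by the scanner software and left out, so its difference of 0.30 ± 0.19 (limma, adjusted p = 0.737) rests on 4 controls. Mbl1 had a difference of 0.38 ± 0.24 with 10 arrays and of 0.11 ± 0.10 with 9. Masp1 had a difference of 0.40 ± 0.23 and 0.16 ± 0.10. Masp2 had 3 probes, with differences of 0.06, 0.30 and 0.10 on 10 arrays and of -0.06, -0.02 and -0.04 on 9.

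Of the convertase genes, C3 had the highest mean difference. C3 is the central protein of all complement pathways. C3 read 3.82, 3.33, 4.38, 1.79 and 4.06 in the controls and 4.66, 3.36, 4.75, 4.49 and 4.32 in the hypothyroid livers. Apart from control 616, the lowest values were on both arrays of slide 141, 1 from each group. The difference was 0.84 ± 0.45 (limma, adjusted p = 0.712) with 10 arrays and 0.42 ± 0.27 (limma, adjusted p = 0.824) with 9. When slide 141 was left out as well, it was 0.47, and 3 of the 4 remaining hypothyroid livers were above the highest remaining control (4.38). The second C3 probe, which was dimmer, had a difference of 0.33 with 10 arrays and of 0.17 with 9. Cfb, factor B of the alternative pathway, had a difference of 0.39 ± 0.20 and 0.23 ± 0.16, and its neighbour C2 of 0.25 ± 0.19 and 0.04 ± 0.08. Cfi, the protease that inactivates C3b, read 7.50, 7.25, 7.68, 4.16 and 7.66 in the controls and 7.97, 7.41, 7.65, 7.69 and 7.59 in the hypothyroid livers. Its ratio was 3.36 lower on control 616 than the mean of the other controls, so that a difference of 0.81 ± 0.59 with 10 arrays became 0.14 ± 0.12 with 9.

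The terminal pathway genes had differences of at most 0.29 without control 616. Hc encodes C5, and C6, C8a, C8b, C8g and C9 the parts of the pore. Hc read 5.50, 5.49, 5.90, 3.71 and 5.69 in the controls and 5.86, 5.56, 5.98, 6.07 and 5.87 in the hypothyroid livers. Hypothyroid 311 and 723 were above every control. It had a difference of 0.61 ± 0.35 with 10 arrays and of 0.22 ± 0.11 with 9 (limma, adjusted p = 0.743), and of 0.25 without slide 141 as well. C8a and C8b are neighbours. C8a had a difference of 0.29 ± 0.23 with 10 arrays and of 0.04 ± 0.10 with 9. C8b had one of 0.15 ± 0.19 and then -0.04 ± 0.12, so its sign turned, and C8g of 0.51 ± 0.29 and 0.19 ± 0.12. C9, the protein that lines the pore, read 3.05, 3.11, 2.41, 3.03 and 2.29 in the controls and 2.54, 3.46, 3.12, 2.70 and 3.23 in the hypothyroid livers. Over the 9 arrays other than control 616 its range was 1.17, and it was the only member measured there for which control 616 was above the mean of the other controls (by 0.32). The reference channel of C9 was above background on 3 of 10 arrays, so its ratios rest on a dim reference signal. Its difference was 0.23 ± 0.22 with 10 arrays and 0.29 ± 0.22 with 9. C6 had a difference of 0.18 ± 0.17 and 0.09 ± 0.16.

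Among the clotting genes the fibrinogen chains had the highest median difference with control 616 included (0.78). Fga, Fgb and Fgg encode the alpha, beta and gamma chains, whose windows are printed above. Fgg read 6.23, 6.00, 6.61, 2.74 and 6.65 in the controls and 6.87, 6.21, 6.69, 6.72 and 6.67 in the hypothyroid livers. Fga read 4.98, 5.35, 5.46, 2.86 and 5.38 in the controls and 5.35, 5.57, 5.18, 5.64 and 5.50 in the hypothyroid livers. Apart from control 616, the groups overlapped for both chains. Fgb read 4.19, 3.82, 5.37, 2.42 and 4.43 in the controls and 4.96, 3.84, 5.18, 5.12 and 5.02 in the hypothyroid livers. On control 616 the 3 chains were 3.63, 2.44 and 2.03 below the mean of the other controls, in the order Fgg, Fga and Fgb. The difference of Fgg was 0.99 ± 0.64 with 10 arrays (limma, adjusted p = 0.736) and 0.26 ± 0.16 with 9 (limma, adjusted p = 0.799). Fga had a difference of 0.64 ± 0.43 and 0.15 ± 0.12, and Fgb of 0.78 ± 0.46 and 0.37 ± 0.32. The range of Fgb over the 9 arrays, 1.55, was the widest of all 36 members, and its values on slide 141 (3.82 and 3.84) were the lowest apart from control 616.

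The procoagulant factors included F9, the clotting gene with a lower mean. F2 encodes prothrombin, the precursor of thrombin, and read 5.21, 4.97, 6.02, 3.54 and 5.68 in the controls and 6.03, 5.02, 6.28, 5.91 and 5.78 in the hypothyroid livers. The lowest values apart from control 616 were on both arrays of slide 141. It had a difference of 0.72 ± 0.41 with 10 arrays and of 0.34 ± 0.25 with 9. F10 and F7 are neighbours in the genome; F10 had a difference of 0.34 ± 0.20 with 10 arrays and of 0.21 ± 0.17 with 9, and F7 of 0.32 ± 0.26 and 0.03 ± 0.09. F5, the cofactor of F10, had a difference of 0.47 ± 0.33 with 10 arrays and of 0.11 ± 0.13 with 9. F13b, the carrier subunit of the fibrin cross-linking factor, had a difference of 0.17 ± 0.20 and then -0.02 ± 0.12, so its sign turned. F9, the factor missing in haemophilia B, read 2.74, 2.62, 2.76, 2.58 and 2.57 in the controls and 2.53, 2.31, 2.55, 2.66 and 2.47 in the hypothyroid livers. All 5 hypothyroid values lay at or below 2.66, and the controls lay between 2.57 and 2.76. The difference was -0.15 ± 0.08 with 10 arrays and -0.17 ± 0.08 with 9 (limma, adjusted p = 0.709; exact permutation p = 0.0714), and control 616 was only 0.09 below the other controls. The second F9 probe had differences of 0.21 and -0.03, so the 2 probes of F9 disagreed in sign with 10 arrays.

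In the contact system, Kng1 encodes kininogen, Klkb1 prekallikrein, and F11 and F12 the proteases that start the intrinsic pathway. All 4 had higher means, by 0.31 to 0.63 with 10 arrays and by 0.07 to 0.26 with 9. Kng1 read 4.01, 4.26, 4.87, 2.58 and 4.64 in the controls and 4.74, 4.30, 5.08, 4.69 and 4.71 in the hypothyroid livers, with a difference of 0.63 ± 0.36 and then 0.26 ± 0.18. Klkb1 varied over 1.35 among the 9 arrays, from 3.66 on hypothyroid 891 to 5.01 on control 832, and its neighbour F11 over 0.48.

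The clotting genes below an unadjusted limma p of 0.05 with 10 arrays were Pros1 and Serpind1, both among the 4 inhibitors of clotting. Pros1 encodes protein S, the cofactor of activated protein C. Pros1 read 2.26, 2.24, 2.45, 1.55 and 2.10 in the controls and 2.55, 2.50, 2.41, 2.27 and 2.55 in the hypothyroid livers. Control 522 was above hypothyroid 311 and 723, and the other controls were below all hypothyroid livers. Its difference was 0.33 ± 0.15 with 10 arrays (limma p = 0.0434, adjusted p = 0.661; exact permutation p = 0.0397) and 0.19 ± 0.09 with 9 (limma, adjusted p = 0.679). The second Pros1 probe had a difference of 0.29 and 0.09. Serpind1 encodes heparin cofactor II, which blocks thrombin. Serpind1 read 3.71, 4.06, 4.43, 3.71 and 4.27 in the controls and 4.17, 4.18, 4.58, 4.56 and 4.43 in the hypothyroid livers. The groups overlapped, with hypothyroid 311 and 723 above every control. Its difference was 0.35 ± 0.15 (limma, adjusted p = 0.663; exact permutation p = 0.0794) and 0.27 ± 0.14 without control 616 (limma, adjusted p = 0.759). Serpinc1, antithrombin, read 6.07, 5.61, 6.43, 3.13 and 6.42 in the controls and 6.64, 5.81, 6.63, 6.46 and 6.42 in the hypothyroid livers. Control 616 was far below the other arrays, and hypothyroid 576 was the lowest of its group. The difference was 0.86 ± 0.55 with control 616 and 0.26 ± 0.20 without it. Proc, protein C, had a difference of 0.30 ± 0.16 and 0.19 ± 0.14. Of the fibrinolysis genes, Plg (plasminogen) had a difference of 0.59 ± 0.33 and 0.23 ± 0.11 (limma, adjusted p = 0.712 with 9 arrays), and Serpinf2, the plasmin inhibitor, of 0.51 ± 0.28 and 0.20 ± 0.11. The exact permutation p of Plg with 10 arrays was 0.0635, and that of its second probe, with differences of 0.67 and 0.25, was 0.0476.

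Control and hypothyroid arrays shared a slide on 4 of the 6 slides, which allows the groups to be compared within a slide. On slide 100, which holds control 616, the hypothyroid liver was higher for 34 of 35 members, by a median of 1.35 and by up to 3.93 (Fgg). On slide 136 it was higher for 24 of 36 (median 0.07), on slide 139 for 27 of 36 (median 0.33) and on slide 141 for 21 of 36 (median 0.03). For complement the medians of the last 3 were 0.00, 0.13 and 0.05, and for clotting 0.09, 0.47 and 0.02. By the brightest probe, on all 3 of these slides the hypothyroid liver was higher for 13 members and lower for 4, the other 19 being mixed. The same count was not made over all probes, so these numbers have no background share beside them. The 13 were Mbl2, C3, Cfb, Hc and C8g of complement and Kng1, F11, F2, Fgg, Serpinc1, Serpind1, Plg and Serpinf2 of clotting, and the 4 were C1qa, C1qb, C8b and F9. On slide 136 the second probes of Serpinc1 and Kng1 were lower in hypothyroid liver (-0.23 and -0.02). The second probes of C3 and Plg were higher on all 3 slides. By its brightest probe, F9 was lower in hypothyroid liver on all 4 slides (differences of -0.21, -0.20, -0.31 and -0.11 on slides 136, 139, 141 and 100). Its second probe was mixed, with differences of -0.34, 0.14, -0.13 and 0.95 on the same slides. C3 was higher by 0.37, 0.84, 0.03 and 2.53 on the same slides.

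**Figure D3:**
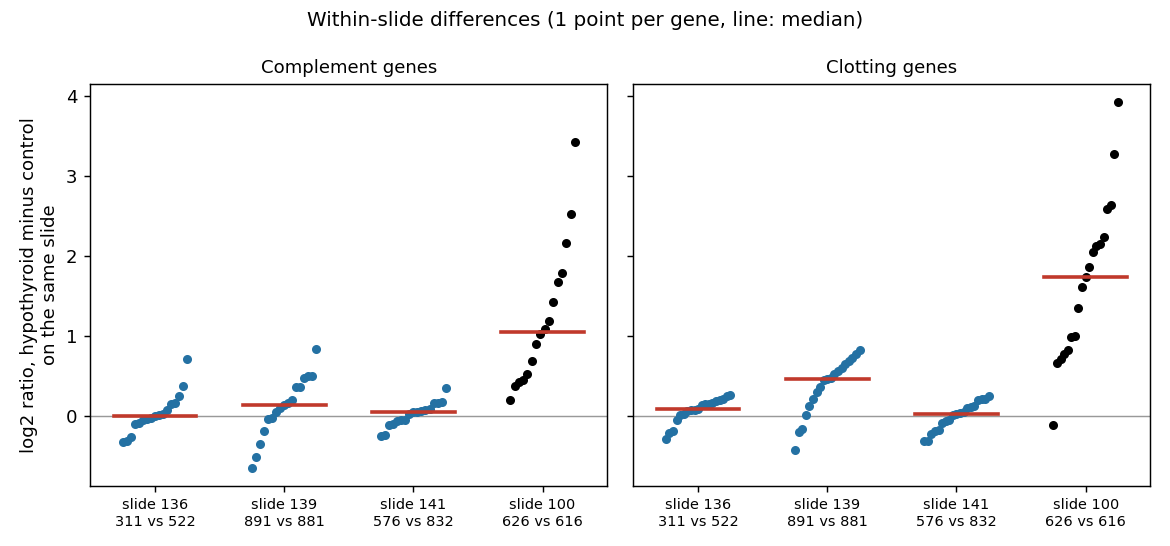
Difference in log2 ratio between the hypothyroid and the control array of 1 slide (vertical axis), 1 point per complement (left) or clotting gene (right), with the median as a line. On slide 100, which holds control 616, the medians are 1.06 and 1.74; on the other 3 slides they lie between 0.00 and 0.47.

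Other hepatocyte transcripts also had higher means in hypothyroid liver. Of 11 hepatocyte markers tested, 11 had a higher mean in hypothyroid liver with 10 arrays (median 0.61) and with 9 (median 0.34). The share of all probes with a higher mean was 46.2% and 49.3%. For the 9 markers with a value on every array, the mean ratio was 2.53 on control 616 and 4.41 to 5.26 on the other arrays. The markers were not read with equal spread between arrays. Albumin (Alb), the main protein of plasma, had a difference of 0.66 and 0.49. Markers of pancreatic acinar cells were high on controls 832, 522 and 616 (list means of 4.53, 4.70 and 2.85) and at 0.77 to 0.90 on the other 7 arrays. The mean of the members on controls 832 and 522 was 4.29 and 4.56, against 4.25 and 4.33 on controls 881 and 391, which had the acinar markers low. When controls 832, 522 and 616 were left out, only controls 881 and 391 remained, and the spread was not made equal between arrays. In this setting 33 of 36 members were higher in hypothyroid liver, against 49.8% of probes. Of the members, 0 had an adjusted limma p below 0.05 (lowest 0.575), against 0.00312% of probes. The part of hepatocyte RNA content and of other tissue in the members' ratios was not tested beyond these values.

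**Figure D4:**
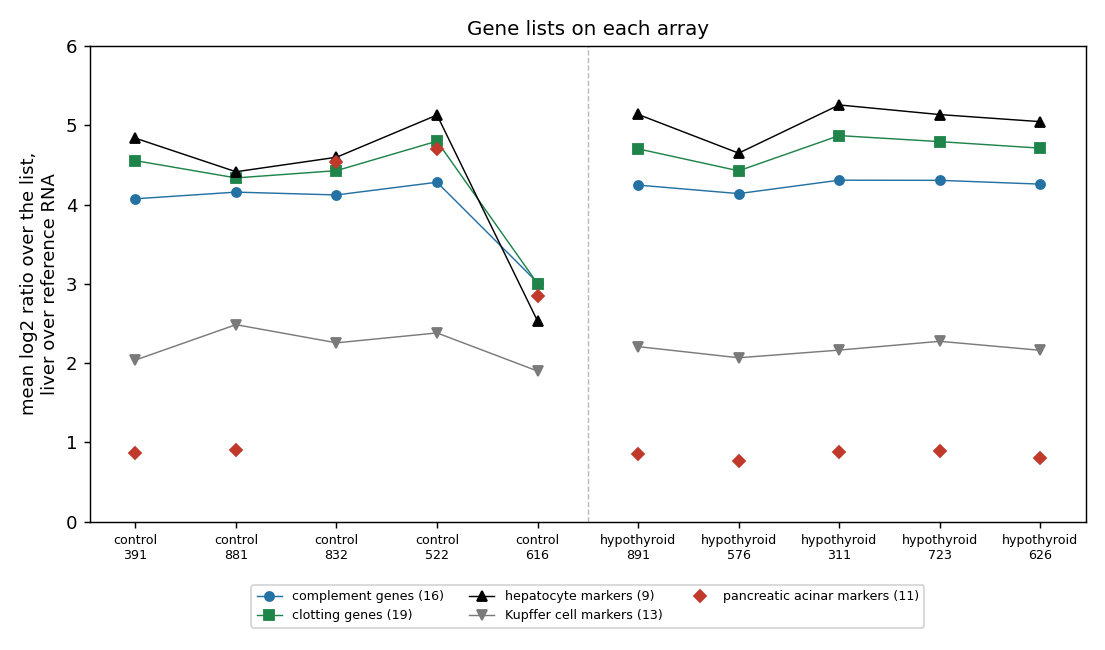
Mean log2 ratio of liver over reference RNA (vertical axis) on each of the 10 arrays for the complement genes (16, without Mbl2), the clotting genes (19), hepatocyte markers (9 with a value on every array), Kupffer cell markers (13) and pancreatic acinar markers (11). The complement, clotting and hepatocyte lists are lowest on control 616, and the acinar markers are high on controls 832, 522 and 616.

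Genes of the same pathways that are not members were read in the same way. For the lists that follow, 46.2% of all probes had a higher mean with 10 arrays and 49.3% without control 616. The groups did not overlap for 2.07% and 2.91% of all probes. Of 27 other complement genes tested, 22 had a higher mean with 10 arrays (median 0.19) and 18 with 9 (median 0.07), and 0 had an adjusted limma p below 0.05. C1s1, a protease of the C1 complex, was the one whose groups did not overlap; its difference was 0.36 with 10 arrays (limma, adjusted p = 0.671) and 0.19 with 9. The highest differences in this list were those of C4bp (0.57 and 0.18), Cfd (0.50 and 0.41) and Vtn (0.46 and 0.33), and the lowest those of C1qbp (-0.18 and -0.05), Itgb2 (-0.17 and -0.05) and Cd55 (-0.14 and -0.16).

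Of 35 other clotting and fibrinolysis genes, 13 were higher and 22 lower with 10 arrays (median -0.06), 14 were higher and 21 lower with 9 (median -0.03), and 0 passed the adjusted threshold either way. The groups did not overlap for 3 of them with all arrays, against 2.07% of probes. Thbd (thrombomodulin, an endothelial receptor of thrombin) had a difference of -0.77 with 10 arrays (limma, adjusted p = 0.321) and of -0.64 with 9. Gas6, a protein S relative, had a difference of -0.45 and -0.34, and Hrg, a hepatocyte glycoprotein that binds plasminogen and heparin, of 0.55 and 0.29. Without control 616 the groups of Bdkrb2, a bradykinin receptor, did not overlap either (difference -0.28 with 10 arrays and -0.36 with 9). The share of probes without overlap was then 2.91%. The other largest differences were those of Fgl1 (0.72 and 0.22), Pzp (0.71 and 0.22), Kng2 (0.58 and 0.03) and Plat (-0.53 and -0.29).

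Of 21 acute phase genes, which rise in inflammation, 15 were higher with 10 arrays (median 0.29) and 14 with 9 (median 0.11), and 0 passed the adjusted threshold. Saa3 was the 1 gene of this list without overlap, against 2.07% of probes with 10 arrays. It was lower (difference -0.78 and -0.62), followed by Mt2 (-0.51 and -0.54) and Saa1 (-0.44 and -0.49). Itih3 (0.77 and 0.37), Fgl1, which is also in the clotting list, and Hp (0.71 and 0.32) had the highest differences. Of 23 regulators of these genes, 11 were higher and 12 lower with 10 arrays (median -0.02), and 8 were higher and 15 lower with 9 (median -0.05). None passed the adjusted threshold. With 10 arrays, 5 were below an unadjusted limma p of 0.05, against 2376 of 32053 probes: Cebpb, Cebpd, Stat5b and Esr1 lower and Onecut1 higher. Without control 616, 5 were below it as well, against 7.36% of probes. These were Cebpb, Cebpd, Stat5b, Esr1 and Il6ra, all with lower means. Cebpb and Cebpd, factors that bind C/EBP sites, had differences of -1.11 and -0.95 with 10 arrays (limma, adjusted p = 0.415 and 0.569) and of -1.09 and -0.69 with 9. Il1r1 had a difference of -0.39 and -0.51, Onecut1 of 0.47 and 0.34, Cebpa of 0.36 and 0.08 and Hnf4a of 0.30 and -0.07. Control 522 had the highest mean of both lists. For the acute phase genes it was 3.18, against 2.42 to 2.58 on controls 881, 832 and 391 and 2.46 to 2.87 on the hypothyroid arrays. For the regulators it was 2.15, against 1.68 to 1.90 and 1.71 to 1.79. The part of control 522 in the differences of single genes of these lists was not tested.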

How the data were processed

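The members and gene lists were chosen with earlier results of these data known. The authors deposited the scanner output of each array, with the median intensity and the background of each spot in both channels, not normalized. The liver was in Cy5 and the reference in Cy3 per the labels, except that the channels of slide 141 were exchanged here. From the deposited intensities, log2 ratios were computed in R 4.3.3 with limma 3.58.1: normexp background correction (offset 50), loess within each array (span 0.2), outlier and control spots left out, and repeated spots averaged. A probe was tested when its liver channel exceeded the mean (5% trimmed) plus 3 SDs of the negative controls on at least 4 arrays of a group, which 32053 of 41174 probes did. lmFit and eBayes were run on group alone, with Benjamini-Hochberg adjustment over all probes at 0.05. The exact permutation test was two-sided over all splits of the arrays and cannot go below 0.00794. Gene symbols came from probe accessions in RefSeq (23384 probes matched), and each gene was read by its brightest probe, with the others given where the sign or the side of an unadjusted p of 0.05 differed. All 36 members are named. Of the other pathway lists, genes whose groups did not overlap and the 3 largest differences each way with 10 arrays are named. The fit was run on simulated data with independent noise and no outlying array, slide effect or exchanged dyes. That run therefore cannot show how the fit behaves with an array such as control 616. The number of arrays, 5 per group, limits the precision, and each array is 1 animal. The miRNA assays of the series were not used here. The alternatives are in the closing section, where 3 were chosen after seeing the data. These left out control 616 and slide 141, left out controls 832, 522 and 616, or made the spread equal without control 616. Their values in the Results above are to be read with this in mind.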

Additional observations from a re-analysis of the deposited data

Results flagged for a closer look

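Of 72 groups of arrays examined, 36 members in 2 groups each, 17 (23.6%) held 1 array far from the other values of its group. The gap to the nearest array was set against the range of the group. The threshold for this share is passed by chance in about 1 in 20 groups taken singly. The 72 groups come from the same arrays and are not independent, and the same count was not made over all probes. The 17 groups with such an array therefore cannot be read as an excess in these genes. For 14 members the array was control 616, the lowest of the controls, and the gap made up the following share of the range: Mbl1 (0.763), Masp1 (0.835), Masp2 (0.793), C2 (0.896), Cfi (0.877), Hc (0.812), F11 (0.782), F5 (0.721), F7 (0.839), Fga (0.814), Fgg (0.833), Serpinc1 (0.751), Plg (0.761) and Serpinf2 (0.724). In the hypothyroid group, F5 was highest on hypothyroid 311 (5.13 against 4.71 on the nearest array, share 0.849), Fgb was lowest on hypothyroid 576 (3.84 against 4.96, share 0.837) and Serpinc1 was lowest on hypothyroid 576 (5.81 against 6.42, share 0.729). Hypothyroid 576 is 1 of the 2 arrays of slide 141. Over all 36 members, Serpinc1, F11, Fgb, Fgg, F2, C3, Cfi and Mbl1 were lower on both arrays of slide 141 than on each of the 7 other arrays without control 616, and F13b was higher on both. The spread of the controls was larger than that of the hypothyroid arrays for 35 of 36 members (median SD 0.55 against 0.19), and for 26 of 36 without control 616 (median SD 0.26). The part of the slide and of the exchanged dyes in these values was not tested.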

How the results depend on the processing

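No member reached an adjusted p below 0.05 under any of the alternatives run, and C3, Cfi, Hc, C6, C8g, Klkb1, Kng1, F2, F5, Fga, Fgb, Fgg, Pros1, Serpinc1, Plg and Serpinf2 kept a higher mean in hypothyroid liver under all of them except that in which the spread was made equal without control 616 and only C3, C6, Fgb and Pros1 of these did. The causes of the shifts below were not tested. The number of arrays limits the precision, and the reference channel of C9 was near background. No paired analysis was possible because the array groups share no animal numbers, other than one by slide, which was run. With slide as a fixed block 2235 probes, 1 complement and 2 clotting members were below an unadjusted p of 0.05, and with slide as a random block 3145, 0 and 3.

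Over all probes, 2 passed an adjusted p of 0.05 and 2376 an unadjusted p of 0.05 with limma. The first count was 0 with dyes as labelled, without slide 141 and with slide as a fixed block, 1 with the processed signals, median centring, equal spread between arrays and the liver channel alone, 1 without control 616 and slide 141, 1 without controls 832, 522 and 616, 5 with equal spread without control 616, 6 with a normexp offset of 10, 14 with slide as a random block, 17 with the methods' Fs test (by 100 shuffles) and 49 with array weights. The second was 110 with dyes as labelled and 317 with median centring. Leaving out 1 array at a time gave 1 (without control 832) to 30 (without control 616) probes.

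The number of clotting members at an unadjusted p below 0.05, 2 with all arrays, was 0 with dyes as labelled, without slide 141, without background correction, with processed signals, with median centring, without control 616 and slide 141, and with equal spread without control 616. It was 1 with a loess span of 0.3, equal spread, the liver channel alone, array weights and the mean of all probes. For complement, 0 with all arrays, it was 2 with a normexp offset of 10 and without controls 832, 522 and 616, 1 with slide as a fixed block, with the Fs test and with equal spread without control 616, and 3 without control 616 and slide 141. Leaving out 1 array gave 0 (without control 616) to 9 (without control 522) for clotting and 0 (without control 881, among others) to 4 (without control 522) for complement.

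The median difference was 0.29 for complement and 0.47 for clotting. With equal spread it was -0.076 and 0.11, and without control 616 as well -0.15 and -0.11. It was 0.16 and 0.24 with array weights, 0.17 and 0.30 with the liver channel alone and 0.17 and 0.27 without controls 832, 522 and 616. For complement it was 0.11 without control 616, with or without slide 141. For clotting it was 0.23 without control 616 and slide 141, and 0.19 (without control 616) to 0.63 (without control 522) over the single arrays left out. The number of members lower in hypothyroid liver, 1 in each class, was 0 in both with median centring, 12 and 8 with equal spread, and 14 and 16 with equal spread without control 616. For complement it was 3 with the liver channel alone and without control 616 and slide 141, and 2 with array weights, slide as a fixed block and without controls 832, 522 and 616. It was 0 for clotting with the mean of all probes. Leaving out 1 array gave 0 (without control 881) to 4 (without control 616) for complement and 1 to 2 (without control 616) for clotting.

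Single members turned sign as follows. C1qb and F9 became 0.093 and 0.070 with median centring and 0.22 and 0.068 with the liver channel alone, where C1qc was -0.16, Mbl2 -0.10, C2 -0.0097 and F13b -0.042. F9 was 0.028 by the mean of all probes. Masp2 was -0.057 with array weights, -0.064 without control 616 and slide 141 (C8b -0.0085) and -0.11 without controls 832, 522 and 616, and C1qa was -0.052 with slide as a fixed block. With equal spread between arrays, C1qa was -0.33, C1qc -0.23, Mbl1 -0.076, Mbl2 -0.011, Masp1 -0.068, Masp2 -0.30, C2 -0.17, Cfb -0.029, C8a -0.26, C8b -0.29, C9 -0.083, F12 -0.17, F11 -0.081, F7 -0.047, F10 -0.059, F13b -0.46, Proc -0.22 and Serpind1 -0.13. With equal spread without control 616, C1qa was -0.24, C1qc -0.16, Mbl1 -0.15, Mbl2 -0.017, Masp1 -0.093, Masp2 -0.26, C2 -0.19, Cfb -0.022, Cfi -0.29, Hc -0.11, C8a -0.25, C8b -0.25, C8g -0.088, F12 -0.11, F11 -0.13, Klkb1 -0.14, Kng1 -0.025, F2 -0.0066, F5 -0.13, F7 -0.20, F10 -0.017, F13b -0.33, Fga -0.15, Fgg -0.13, Proc -0.090, Serpinc1 -0.12, Plg -0.036 and Serpinf2 -0.047. Leaving out 1 array gave -0.062 (without control 616) to 0.13 (without control 832) for C1qa, -0.32 (without control 616) to 0.050 (without control 881) for C1qb, -0.060 (without control 616) to 0.11 (without control 881) for Masp2, -0.035 (without control 616) to 0.26 (without control 881) for C8b and -0.019 (without control 616) to 0.29 (without control 832) for F13b.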
